A study of Mus musculus with 8 samples.

Results

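The fibrillar collagens are the chains that assemble into the banded, load-bearing fibrils of connective tissue. The 10 chains described here were taken by name from a fixed list (Col1a1, Col1a2, Col2a1, Col3a1, Col5a1, Col5a2, Col5a3, Col11a1, Col11a2 and Col27a1), out of 31053 gene identifiers in each count file. The family was selected on the levels and fold changes of the genotype comparison in these same libraries, and its members are every listed name. Therefore the genotype values of the chains are given as a description and carry no p-value. Whether a chain passed the threshold of the fit over all genes is stated, and nothing is read from the number that did.

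Gene counts came from QuantSeq 3′ mRNA sequencing of retinal pigment epithelium (RPE) eyecups of mice at postnatal day 11. Of the 8 libraries, 4 came from Bbs8-/- animals and 4 from Bbs8+/+ littermates, all on a C57/Bl6 background, and each library was 1 animal. The knockout was global, so the choroid and sclera of the Bbs8-/- animals lacked the gene as well as the RPE. Cornea, lens, retina, optic nerve, muscle and fat were dissected away and the whole remaining cup was lysed, which leaves the RPE together with choroid and sclera.

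Fibrillar procollagen chains fold into triple helices in the endoplasmic reticulum, lose their end propeptides outside the cell and then pack into fibrils that are crosslinked by lysyl oxidases. Type I collagen, built from the Col1a1 and Col1a2 chains, makes up the bulk of the scleral fibrils, type III runs through vessel walls and distensible tissue, and types V and XI form the core on which type I and type II fibrils start and which limits their width. Type II is the main fibrillar collagen of cartilage and of the vitreous, and Col27a1 is best known from the growth plate.

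Library totals ran from 1636725 to 2884983 gene counts. Levels are given in CPM, which are counts scaled to a common library total with edgeR's TMM factors, and a count of 3 corresponded to 1.04 to 1.83 CPM. Ttc8, the gene for Bbs8, a BBSome subunit, ranged over 14.7 to 21.7 CPM in Bbs8+/+ animals and over 2.30 to 9.72 CPM in Bbs8-/- animals (log2 fold change -1.95 ± 0.317 (SE), FDR = 2.75e-06 in edgeR's quasi-likelihood test). No Bbs8-/- library reached the Bbs8+/+ range. Bbs8-/- replicate 1 stood apart at 9.72 CPM (16 counts), against 2.30 to 4.21 CPM in the other Bbs8-/- libraries. The Ttc8 level alone does not verify the genotype of each library. Reads assigned to no gene made up 42.1 to 43.4% of the unique reads in Bbs8+/+ and 44.1 to 44.4% in Bbs8-/-, ranges that did not overlap. Among 13813 tested genes, 157 were lower and 152 higher in Bbs8-/- at a false discovery rate (FDR) of 0.05.

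The 10 genes are spread over the mouse genome, with 1 pair of neighbours. On mm10, Col1a1 is on chr11:94936224-94953042 and Col1a2 on chr6:4504814-4541544, both on the plus strand. Col3a1 (chr1:45311538-45349706, plus strand) and Col5a2 (chr1:45374321-45503282, minus strand) face each other tail to tail across a gap of 24614 bases. The nucleating chains Col5a1 (chr2:27886425-28039514, plus), Col5a3 (chr9:20770050-20815067, minus), Col11a1 (chr3:114030540-114220718, plus) and Col11a2 (chr17:34039437-34066685, plus) are scattered, as are Col2a1 (chr15:97975602-98004695, minus) and Col27a1 (chr4:63214004-63334991, plus). They are long, finely split genes with 48 to 68 merged exons each, and the 3′ assay reads their last exons, which span from 585 bases in Col2a1 to 2645 bases in Col5a1. No other annotated gene lay within 1 kb of any of their 3′ ends. Among the chains, exonic bases were shared with another gene only by Col3a1 (Gm47302, same strand) and Col5a1 (Gm13372 and 2810430I11Rik, opposite strand), and since it is not given whether reads were counted by strand, reads from such stretches cannot be assigned with certainty.

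The 250 bases before the RefSeq transcription start (GRCm38.p6, plus strand) are shown for Col3a1 and Col5a1, chains that were lower in Bbs8-/- and for Col11a1, the abundant chain that did not pass the threshold, to set the proximal promoters of fibril-forming and nucleating chains side by side. They are Col3a1 (chr1:45311288-45311537), Col5a1 (chr2:27886175-27886424) and Col11a1 (chr3:114030290-114030539). The Col1a2 window (chr6:4505368-4505617) overlaps annotated transcripts of that gene that start further upstream and is described without its letters. Capitals mark a CCAAT box, a GC box (GGGCGG) or a TATA motif (TATAAA) on either strand.
Col3a1: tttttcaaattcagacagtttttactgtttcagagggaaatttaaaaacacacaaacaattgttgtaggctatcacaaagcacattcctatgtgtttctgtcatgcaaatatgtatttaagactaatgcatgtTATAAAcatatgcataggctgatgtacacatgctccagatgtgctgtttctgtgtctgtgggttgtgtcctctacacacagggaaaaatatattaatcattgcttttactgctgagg
Col5a1: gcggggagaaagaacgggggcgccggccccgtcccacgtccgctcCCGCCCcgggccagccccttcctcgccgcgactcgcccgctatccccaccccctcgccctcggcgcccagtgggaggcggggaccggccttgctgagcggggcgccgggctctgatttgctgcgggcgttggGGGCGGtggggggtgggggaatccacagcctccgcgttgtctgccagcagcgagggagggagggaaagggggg
Col11a1: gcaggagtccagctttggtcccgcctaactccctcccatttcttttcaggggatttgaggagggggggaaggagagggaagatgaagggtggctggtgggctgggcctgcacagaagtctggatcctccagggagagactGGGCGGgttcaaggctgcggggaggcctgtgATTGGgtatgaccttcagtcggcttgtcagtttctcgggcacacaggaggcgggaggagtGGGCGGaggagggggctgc

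The windows differed widely in composition. The Col5a1 window was 76.4% GC and those of Col1a2 and Col11a1 were 62.0% and 62.4% GC, whereas the Col3a1 window was 35.2% GC, against a median of 52.4% over all windows. A CCAAT box, the motif of the trimeric factor NF-Y, began 109 bases before the Col1a2 start and lay on the opposite strand 79 bases before the Col11a1 start. The Col3a1 window held a TATA motif 117 bases before the start and no GC box. Over the 7 chains with an entry, 3 windows held a CCAAT box, 6 a GC box and 2 a TATA motif, where 33.8%, 32.7% and 12.4% of 32851 windows of the same length did. The matches are letters in the window only. GC boxes were present in Col1a2 and Col5a1, which were lower in Bbs8-/-, and in Col11a1, which was not past the threshold. Col1a1, Col2a1 and Col5a2 have no entry in the promoter table.

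Type I collagen dominated the family. In the Bbs8+/+ libraries Col1a2 averaged 15122 ± 684 CPM (SD, n = 4) and Col1a1 11717 ± 134 CPM, ranking 3 and 5 among the 13813 tested genes. A 3′ tag is 1 read per transcript end, so the counts of different chains were set side by side without division by length, although priming may differ between them. Col3a1 followed at 2143 ± 40.0 CPM (rank 19) and Col11a1 at 1153 ± 112 CPM (rank 44). The type V chains were lower, with Col5a2 at 271 ± 13.0 CPM, Col5a1 at 158 ± 11.3 CPM and Col5a3 at 39.9 ± 5.71 CPM. Col27a1 stood at 46.1 ± 5.40 CPM, Col11a2 at 24.9 ± 4.53 CPM and Col2a1 at 3.12 ± 1.11 CPM, close to the level of 3 counts. This order, from Col1a2, Col1a1, Col3a1, Col11a1, Col5a2, Col5a1, Col27a1, Col5a3 and Col11a2 down to Col2a1, was identical in both genotypes, and every chain exceeded the next in all 4 libraries of each genotype. The narrowest step in Bbs8+/+ was that from Col27a1 to Col5a3, at 1.15-fold, and in Bbs8-/- that from Col1a2 to Col1a1, at 1.18-fold.

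**Figure D1:**
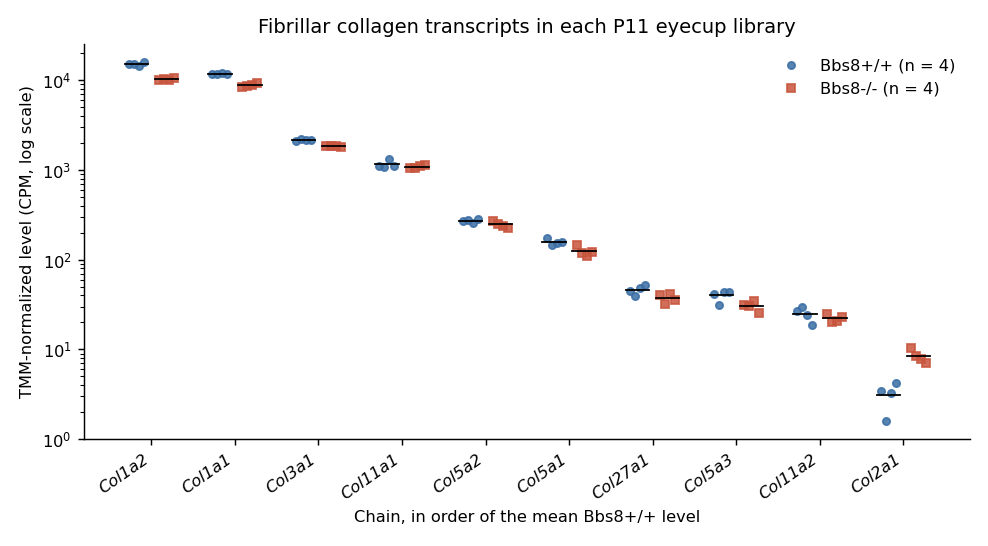
Levels of the 10 fibrillar collagen chains in CPM after TMM scaling, on a log axis, for each of the 4 Bbs8+/+ (circles) and 4 Bbs8-/- (squares) libraries, with bars at the group means. The Bbs8+/+ means run from 15122 CPM for Col1a2 to 3.12 CPM for Col2a1, and the Bbs8-/- squares lie below all circles for Col1a2, Col1a1 and Col3a1 and above all circles for Col2a1.

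In CPM, the genotypes differed most in the type I chains. Col1a2 was 31.8% lower and Col1a1 25.3% lower in Bbs8-/-, Col3a1 was 13.7% lower, and Col5a1, the main type V nucleating chain, was lower with overlapping groups. Of the 10 chains, all of which passed the filter on low counts, 4 were lower, 0 higher and 6 not past FDR 0.05, beside 1.14% of all tested genes lower and 1.10% higher. Groups did not overlap for 3 chains lower and 1 higher in Bbs8-/-, beside 3.76% of all tested genes below and 3.62% above. Fold changes were negative in 9 chains, as in 50.5% of all tested genes, and the median log2 fold change was -0.25, against -0.0041 over all tested genes. As the chains were listed from this contrast, these figures describe the family and support nothing further. In whole eyecups, fewer cells of a type and less RNA per cell cannot be told apart.

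Col1a2, which encodes the α2 chain of type I collagen, had 15249, 14965, 14311 and 15962 CPM in Bbs8+/+ and 10153, 10297, 10098 and 10694 CPM in Bbs8-/-. The lowest Bbs8+/+ library stood well above the highest Bbs8-/- library, and the log2 fold change was -0.55 ± 0.0286 (SE). Col1a1, which encodes the α1 chain, had 11639, 11733, 11899 and 11598 CPM in Bbs8+/+ and 8399, 8681, 8737 and 9189 CPM in Bbs8-/-. Again no library of one genotype reached the range of the other (log2 fold change -0.42 ± 0.0294). Col3a1, the homotrimeric type III chain, had 2099, 2194, 2128 and 2152 CPM against 1843, 1864, 1871 and 1817 CPM. Its groups were tight and separate, with a log2 fold change of -0.21 ± 0.0415. These 3 chains kept their call in all 19 alternative settings.

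Among the type V and XI chains the differences were smaller or less certain. Col5a1 had 174, 147, 154 and 156 CPM in Bbs8+/+ and 148, 118, 109 and 122 CPM in Bbs8-/-. The Bbs8-/- replicate 1 lay inside the Bbs8+/+ range, and the log2 fold change of -0.35 ± 0.0920 passed the threshold. The call was lost in 5 of 19 alternatives, among them leaving out Bbs8+/+ replicate 1 (log2 fold change -0.30), Bbs8-/- replicate 2 (-0.33) or Bbs8-/- replicate 3 (-0.29). Col5a2, its usual partner chain in the type V trimer, had 268, 275, 255 and 286 CPM against 270, 251, 238 and 228 CPM, with overlapping groups and a log2 fold change of -0.14 ± 0.0721 that was not past the threshold. Col5a3, a chain of more restricted expression, had 31.5 to 43.5 CPM in Bbs8+/+ and 25.3 to 34.4 CPM in Bbs8-/- (log2 fold change -0.39 ± 0.169, not past).

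Col11a1, the most abundant nucleating chain of this tissue, had 1107, 1083, 1320 and 1102 CPM in Bbs8+/+ and 1063, 1041, 1098 and 1147 CPM in Bbs8-/-. Apart from the high Bbs8+/+ replicate 3, the libraries of both genotypes lay within the same narrow range, and the log2 fold change of -0.083 ± 0.0501 was not past the threshold. With single libraries left out in turn, it ranged from -0.11 to -0.012. Col11a2, its partner in the type XI trimer, had 18.9 to 29.5 CPM against 20.4 to 24.9 CPM, the latter range lying inside the former. Its log2 fold change was -0.16 ± 0.204, and ranged from -0.28 to -0.061 with single libraries left out. Col27a1 had 39.0 to 51.7 CPM against 32.4 to 41.8 CPM, with a log2 fold change of -0.29 ± 0.155, again not past the threshold.

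Col2a1 was the only chain with a positive fold change, and it was the rarest. It had 8, 4, 7 and 12 counts in the Bbs8+/+ libraries and 17, 16, 17 and 15 counts in the Bbs8-/- libraries, which corresponded to 3.12 ± 1.11 CPM and 8.38 ± 1.41 CPM. The groups did not overlap, but the counts were few, and the log2 fold change of 1.39 ± 0.439 was not past the threshold in the quasi-likelihood test. It passed narrowly with edgeR's own filter on low counts (FDR = 0.0478, quasi-likelihood test) and under the likelihood ratio test (FDR = 0.0450). In the other 17 of 19 alternatives it did not pass. Among these were thinning every library to the smallest one (1.08, FDR = 0.293) and leaving out Bbs8+/+ replicate 2 (1.17, FDR = 0.228), with the quasi-likelihood test. Markers of cartilage and bone summed to 44.4 to 61.5 CPM in Bbs8+/+ and 38.4 to 62.2 CPM in Bbs8-/-, with 5 of 10 tested and none called. Of the cartilage genes, Cnmd (chondromodulin) was at 12.3 CPM in Bbs8+/+ and 16.0 CPM in Bbs8-/-, Col10a1 at 30.8 and 24.2 CPM, Acan (aggrecan) at 1.73 and 2.12 CPM, and Matn1 at 0 in all libraries. The lens list was higher in Bbs8-/- as a sum, through some of its members: it summed to 197 to 231 CPM in Bbs8+/+ and 511 to 551 CPM in Bbs8-/-, 6 of 10, all crystallins, were higher (beside 1.10% of all tested genes), and none was at 0 in all libraries. The others did not pass: Cryab, the largest part of the Bbs8+/+ sum, was at 162 against 146 CPM, and Mip (8.53 against 10.5 CPM), Lim2 and Crybb2 overlapped. The part of either tissue in the Col2a1 values was not tested. Col24a1, a fibrillar chain outside the list, had 9.93 to 15.4 CPM against 12.2 to 20.7 CPM, and its log2 fold change of 0.44 ± 0.261 was not past the threshold.

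Summed over the 10 chains, fibrillar collagen accounted for 30652, 30499, 30188 and 31374 CPM in Bbs8+/+ and 21984, 22345, 22257 and 23289 CPM in Bbs8-/-. The summed level was thus 26.8% lower in Bbs8-/-, with no overlap. As a share of all gene counts, which needs no scaling between libraries beyond the total, the family took 3.07 ± 0.0596% in Bbs8+/+ and 2.24 ± 0.0329% in Bbs8-/- (SD, n = 4). Type I supplied 94.7% of the difference in CPM, of which Col1a2 gave 58.6% and Col1a1 36.1% of the whole, and Col3a1 gave 3.59%. The other 8 chains together were at 3839 ± 94.4 CPM against 3406 ± 28.7 CPM, 11.3% lower, and the type V and XI chains at 1647 ± 103 CPM against 1511 ± 38.6 CPM, 8.23% lower. Neither of these sums overlapped between genotypes. The type V and XI sum leaned on Bbs8+/+ replicate 3, which was at 1797 CPM against 1566 to 1617 CPM in the other Bbs8+/+ libraries, and without it the difference was 5.34%, an alternative added after seeing the data.

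The make-up of the fibrillar pool differed accordingly. Col1a2 made up 49.3 ± 1.45% of the 10 chains' counts in Bbs8+/+ (47.4 to 50.9%) and 45.9 ± 0.363% in Bbs8-/- (45.4 to 46.2%), while the share of Col1a1 was 38.2 ± 1.02% and 38.9 ± 0.552%, with overlapping groups. Some of the minor chains took larger shares in every Bbs8-/- library. Col3a1 had 6.99 ± 0.166% against 8.23 ± 0.288%, Col11a1 3.76 ± 0.409% against 4.84 ± 0.128% and Col5a2 0.883 ± 0.0300% against 1.10 ± 0.104%, each without overlap. The share of Col2a1 was 0.0102 ± 0.00351% against 0.0374 ± 0.00707%, also without overlap, and the exact binomial 95% interval, which covers counting error only, ran from 0.00141 to 0.0132% in the Bbs8+/+ library with the fewest Col2a1 counts. Shares of Col5a1, Col5a3, Col11a2 and Col27a1 overlapped between genotypes. Shares of 1 pool are tied to each other: a chain whose level did not pass the threshold, such as Col11a1, takes a larger share when type I is lower.

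**Figure D2:**
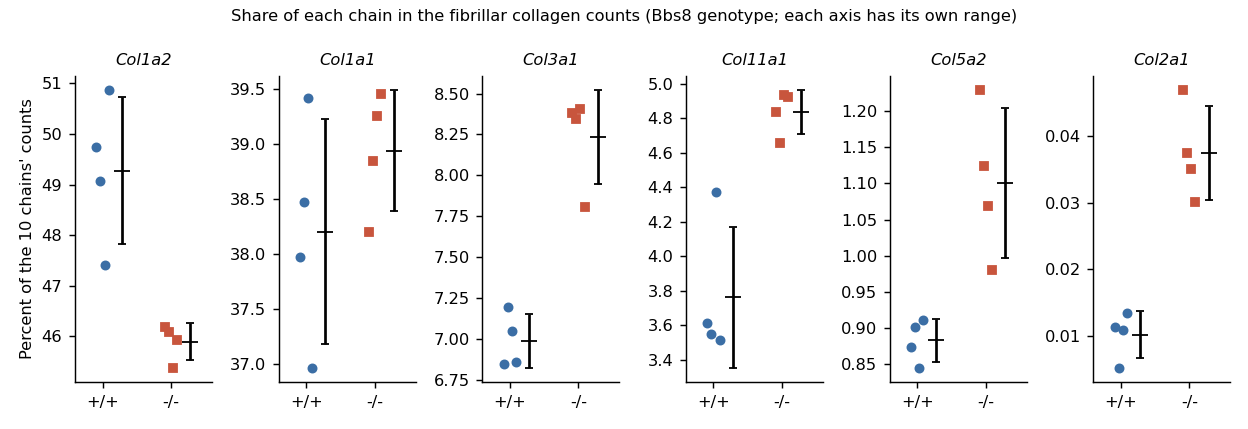
Percent of the 10 chains' counts taken by 6 chains in each Bbs8+/+ (circles) and Bbs8-/- (squares) library, with the mean ± SD beside each group, each panel on its own axis range. Col1a2 has a mean of 49.3% in Bbs8+/+ and 45.9% in Bbs8-/-, the Col1a1 groups overlap, and Col3a1, Col11a1, Col5a2 and Col2a1 take larger shares in all Bbs8-/- libraries.

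Ratios between chains, which do not depend on library scaling, restate the counts behind the shares. Col3a1 stood at 7.99 ± 0.212 counts per 100 type I counts in Bbs8+/+ and at 9.71 ± 0.382 in Bbs8-/-. For Col11a1 the ratio was 4.30 ± 0.492 against 5.70 ± 0.151, and for the 3 type V chains together 1.75 ± 0.0425 against 2.11 ± 0.227. All of these ratios were higher in every Bbs8-/- library than in any Bbs8+/+ library. They have the type I counts as their denominator, and the type I level was lower in Bbs8-/-. Within the heterotrimers the groups overlapped: Col1a2 per Col1a1 was 1.29 ± 0.0723 (1.20 to 1.38) against 1.18 ± 0.0239 (1.16 to 1.21), and Col5a2 per Col5a1 was 1.72 ± 0.154 against 2.00 ± 0.173.

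Fibroblasts are the main source of fibrillar collagen. Summed over 16 fibroblast markers other than collagens, the genotypes overlapped (Bbs8+/+ 1751 ± 55.5 CPM, Bbs8-/- 1735 ± 44.9 CPM). The members went both ways. Of 15 tested, 0 were lower and 2 higher, Thy1 (log2 fold change 0.76, FDR = 0.0455) and Pi16 (0.64, FDR = 1.90e-04), beside 1.14% and 1.10% of all tested genes, and the median log2 fold change was 0.010. Among those not past the threshold, Pdgfrb (66.2 against 52.3 CPM) and Fap (220.0 against 195 CPM) were lower in every Bbs8-/- library, Cd34 (161 against 188 CPM) was higher in every one, and Fbn1, the most abundant, was at 540.1 against 493 CPM with overlapping groups. Per count of these markers, the 10 chains had 17.5 ± 0.705 counts in Bbs8+/+ (17.0 to 18.5) and 13.0 ± 0.258 in Bbs8-/- (12.6 to 13.3), a log2 ratio of -0.44, beside -0.45 for the sum in CPM. The part of fibroblast number in the collagen values was not tested.

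Markers of several other tissues differed as sums. The counts of calls are set beside 1.14% lower and 1.10% higher of all tested genes. Pigment-cell markers summed to 14457 ± 291 CPM in Bbs8+/+ and 12053 ± 244 CPM in Bbs8-/-. Of the 10 markers, 6 were lower (Mlana, Pmel, Dct, Tyrp1, Slc45a2 and Mitf), and Dct alone was at 10378 against 8736 CPM. Tyr (273 against 276 CPM), Sox10 (130 against 125 CPM) and Kit (34.2 against 33.5 CPM) overlapped between genotypes. Most pigment genes of this list are also expressed by the RPE, so the list does not separate these cell types. RPE markers summed to 17774 ± 454 against 18583 ± 139 CPM, with 1 of 9, Krt18, called higher. Most of that sum was Ttr (10955 against 11676 CPM, not past the threshold), and Rpe65 (2002 against 1827 CPM) and Lrat (346 against 323 CPM) had negative fold changes, neither past the threshold. Mural cell markers were at 1330 ± 24.7 against 1209 ± 36.0 CPM, with 2 of 10 lower, Rgs5 (715 against 599 CPM), which made up most of the difference in the sum, and Notch3. The fold changes of 4 mural markers were positive, and Acta2 (254 against 272 CPM, not past the threshold) was higher in every Bbs8-/- library. Photoreceptor markers were at 409 ± 24.1 against 315 ± 27.0 CPM, with 2 of 10 lower. The cornea list was at 2129 ± 81.5 against 2447 ± 69.8 CPM, nearly all of it Clu (2042 against 2378 CPM, called higher), which many tissues express. Among its other members, Kera was at 40.6 against 38.7 CPM (overlap), Aldh3a1 at 43.1 against 30.4 CPM (no overlap, not past the threshold), Krt5 at 3.00 CPM against 0 in all Bbs8-/- libraries, Krt12 was below the filter and Krt14 was at 0 in all libraries. The sums of these 5 lists did not overlap between genotypes. Endothelial (0 of 10 called) and skeletal muscle (2 of 10 higher) sums overlapped. The part of these tissues in the collagen values was not tested.

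**Figure D3:**
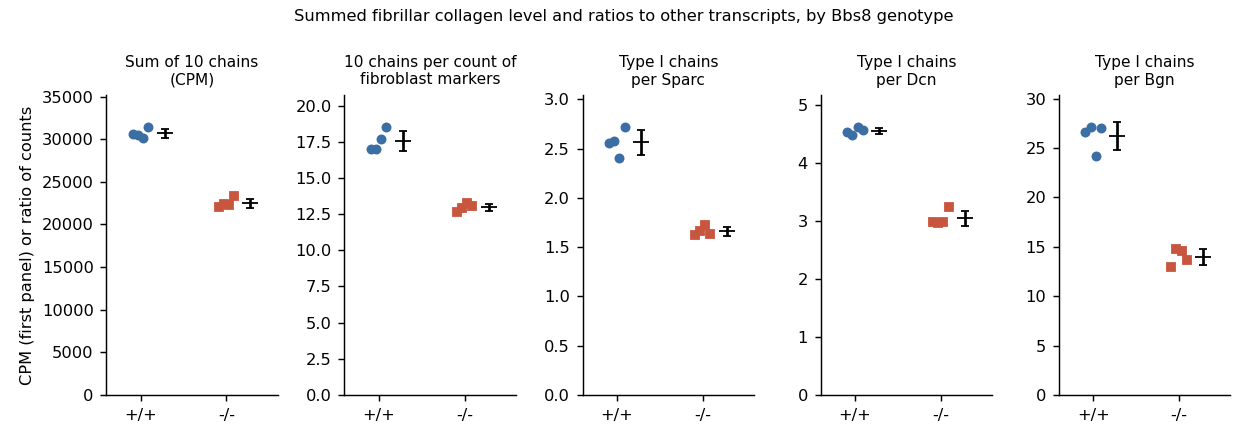
Summed level of the 10 chains in CPM (first panel) and ratios of counts (10 chains per fibroblast marker count, and Col1a1 plus Col1a2 per Sparc, Dcn and Bgn count) in each Bbs8+/+ (circles) and Bbs8-/- (squares) library, with mean ± SD beside each group and all axes starting at 0. In each panel all 4 Bbs8-/- libraries lie below all 4 Bbs8+/+ libraries.

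Genes that act with the fibrillar chains were examined in 6 lists of 80 genes. Of the 74 tested, 5 were lower (6.76%) and 2 higher (2.70%) in Bbs8-/-, beside 1.14% and 1.10% of all tested genes, and their median log2 fold change was -0.079. The lists were drawn up with earlier results of these libraries known.

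In folding and secretion, 2 of 21 genes were lower, 0 higher and 19 not past the threshold. Serpinh1, the collagen-specific chaperone HSP47, had 407, 421, 407 and 436 CPM in Bbs8+/+ and 327, 331, 332 and 348 CPM in Bbs8-/- (log2 fold change -0.32 ± 0.0637, FDR = 2.44e-04). Creb3l1, a membrane-bound transcription factor of the endoplasmic reticulum that drives type I collagen genes in bone, had 107, 87.8, 118 and 113 CPM against 70.5, 78.4, 66.1 and 76.2 CPM (-0.54 ± 0.111, FDR = 4.56e-04). For both, every Bbs8-/- library lay below every Bbs8+/+ library. The enzymes of proline and lysine hydroxylation did not pass the threshold, and the list as a whole had 16 negative fold changes and a median of -0.19.

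For propeptide removal and crosslinking, 0 of 11 tested genes were called and the median log2 fold change was -0.0097. Its most abundant member, Pcolce, which enhances cleavage of the C-propeptide, was at 347 ± 21.1 CPM against 390 ± 18.8 CPM (0.17 ± 0.0647, FDR = 0.201). Adamts2, which removes the N-propeptide, had no overlap between genotypes and a log2 fold change of -0.32, just short of the threshold (FDR = 0.0526); it was singled out after its value was seen.

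Genes for molecules on the fibril surface moved in both directions. Of 17 tested, Bgn and Sparc were higher and Col16a1 was lower. Bgn, the small proteoglycan biglycan, had 1009, 986, 1085 and 1019 CPM in Bbs8+/+ and 1427, 1286, 1295 and 1458 CPM in Bbs8-/- (log2 fold change 0.42 ± 0.0483, FDR = 1.29e-11). Sparc, which encodes a collagen-binding matricellular protein, was at 10479 ± 309 CPM against 11492 ± 505 CPM (0.13 ± 0.0294, FDR = 0.00148), without overlap, but lost its call under the likelihood ratio test (FDR = 0.225). Col16a1, a fibril-associated collagen, was at 255 ± 11.2 CPM against 202 ± 27.9 CPM (-0.34 ± 0.0771, FDR = 0.00209). Dcn, for decorin, was at 5894 ± 151 CPM against 6261 ± 122 CPM and did not pass the threshold (0.087 ± 0.0326, FDR = 0.174). The type I chains had 4.55 ± 0.0570 counts per Dcn count in Bbs8+/+ and 3.05 ± 0.136 in Bbs8-/-, 26.2 ± 1.40 against 13.99 ± 0.818 per Bgn count, and 2.56 ± 0.125 against 1.66 ± 0.0434 per Sparc count. None of these 3 ratios overlapped between genotypes, and all of them also carry their denominators, since Bgn, Sparc and Dcn were each higher in every Bbs8-/- library than in any Bbs8+/+ library.

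**Figure D4:**
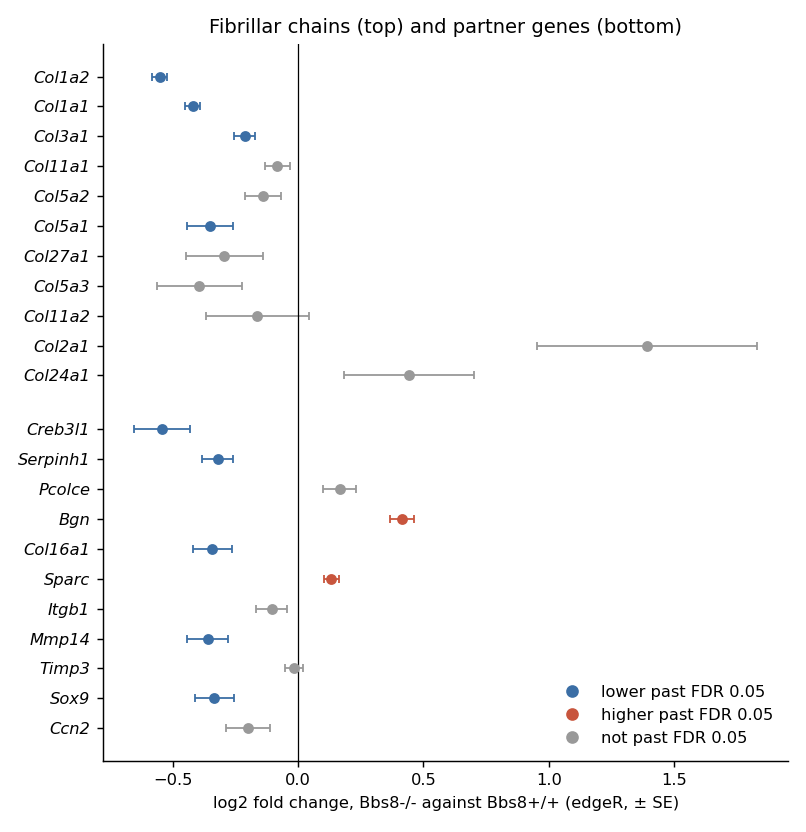
Log2 fold change of Bbs8-/- against Bbs8+/+ with its standard error from the edgeR fit over all genes, for the fibrillar chains in order of abundance and Col24a1 (top), and for the named partner genes (bottom). Lower genes past FDR 0.05 are blue, higher genes red and the rest gray, and the values run from -0.55 for Col1a2 to 1.39 for Col2a1, with Bgn (0.42) and Sparc (0.13) as the higher partner genes.

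Receptors, turnover and transcription gave few calls. None of the 9 collagen receptors passed the threshold. Their fold changes were negative in all 9, as in 50.5% of all tested genes, and ran from -0.67 (Mrc2) to -0.0046 (Itga11), with a median of -0.12. Itgb1, the shared β subunit of the collagen-binding integrins, was at 464 ± 27.8 CPM against 431 ± 5.30 CPM. Mmp14, a membrane-anchored collagenase, was at 213 ± 17.2 CPM against 166 ± 12.2 CPM (log2 fold change -0.36 ± 0.0812, FDR = 0.00209), the only call among 6 tested turnover genes. Timp3, an inhibitor of matrix proteases held in Bruch's membrane, was at 3827 ± 57.4 CPM against 3782 ± 51.6 CPM, and Mmp13 was at 0 in all libraries. Sox9, the transcription factor of cartilage matrix genes that is also active in the RPE, was at 220 ± 14.1 CPM against 175 ± 6.53 CPM (-0.33 ± 0.0791, FDR = 0.00429), the only call among 10 genes of transcription and TGF-β signaling. Without Bbs8+/+ replicate 2, both Mmp14 (-0.30) and Sox9 (-0.28) lost their call. Ccn2, a matrix-regulating target of TGF-β, was at 234 ± 41.4 CPM against 204 ± 46.0 CPM, with overlapping groups.

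After the genotype means were removed, the summed fibrillar level varied little between animals, by -0.031 to 0.052 on the log2 scale. The genes whose log2 CPM followed these small deviations most closely over the 8 libraries, among 9033 genes of at least 10 CPM, were Sh3gl1 (Pearson's r = 0.996), Gpc6 (0.958), Dnajb2 (0.948), 2610507B11Rik (0.947), Rnf6 (0.935), Mfn2 (0.931), Ccdc186 (0.926), Kat14 (0.926), Pcmtd1 (0.926) and Retreg3 (0.921). None of these 10 passed the threshold between genotypes. The r values are a description over 8 libraries that share depth and scaling, picked as the highest of many. Of the chains themselves, Col1a2 (r = 0.857) and Col1a1 (0.639), which make up most of the sum, followed it. The other chains of at least 10 CPM, among them Col3a1 (-0.30) and Col5a2 (-0.31), did not. Their r ran from -0.37 (Col5a3) to -0.024 (Col11a1).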

How the data were processed

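Libraries were prepared from RPE eyecup RNA with a QuantSeq 3′ kit. The authors trimmed reads with BBDuk, aligned them with STAR to mm10 and counted unique reads per gene with htseq-count. The deposited values were these raw counts, 1 file per library, with Ensembl identifiers, of which 31011 of 31053 matched GENCODE M21 and gave symbols. Rows that name no gene were left out of library sizes. The strand setting of the counting is not given in the sources used here.

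The 13813 genes that reached 1 CPM in 4 or more libraries were fitted with edgeR 4.0.16 (R 4.3.3, TMM scaling, quasi-likelihood test, genotype only), with Benjamini-Hochberg adjustment over all of them and a threshold of FDR 0.05. CPM are after TMM scaling. Shares and ratios use raw counts. Replicate libraries differed by more than sampling noise. Alternatives included DESeq2 1.42.0. Both depth and the spread between animals limit the precision, and a count of 3 was taken as the floor.

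Members and lists were chosen with earlier results of these data known. Named partner genes were those past the threshold in each list (at most 6) and its most abundant member. Adamts2, Dcn, Mmp13, Mrc2, Itga11 and single members of marker lists were named after their values were seen. Replicate numbers did not pair the libraries. Promoters came from RefSeq on GRCm38.p6, and motifs were searched on both strands by exact match.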

Additional observations from a re-analysis of the deposited data

Results flagged for a closer look

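Of 100 groups of 4 libraries looked at, 10 held a library far from the other 3, where chance would give about 1 in 20 groups, or 5. Of these, 3 concern the high Col11a1 of Bbs8+/+ replicate 3. Its level was 1320 CPM, against 1083 to 1107 CPM in the others, its share of the 10 chains 4.37% against 3.51 to 3.61%, and its ratio 5.04 per 100 type I counts against 4.00 to 4.12. In the same library, type I stood at 24.2 counts per Bgn count, against 26.6 to 27.1.

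Bbs8-/- replicate 4 held 3 others. The share of Col3a1 was 7.80%, against 8.34 to 8.41%, Col3a1 stood at 9.14 per 100 type I counts, against 9.82 to 9.94, and type I stood at 3.25 counts per Dcn count, against 2.96 to 2.99. Among partner genes, Sox9 was at 241 CPM in Bbs8+/+ replicate 2 (others 211 to 214). In Bbs8-/- replicate 2, Itgb1 was at 439 CPM (others 428 to 429) and Mmp14 at 185 CPM (others 159 to 162).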

How the results depend on the processing

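The 19 alternatives were another size factor, total counts only, 2 other filters on low counts, the likelihood ratio test, DESeq2, the replicate block, FDR 0.01, thinning every library to the smallest one, removal of mitochondrial genes and Gm42418, scaling without the 10 chains (chosen after seeing the data) and each of the 8 libraries left out in turn. Col1a1, Col1a2 and Col3a1 stayed lower in all of them. Col5a1 missed the threshold at FDR 0.01 and after thinning (-0.31), and without 3 single libraries. The number of chains called higher was 1 instead of 0 with edgeR's filter and with the likelihood ratio test, both through Col2a1, and the latter test left 1 partner gene higher. At FDR 0.01, 81 genes were lower and 92 higher. With single libraries left out, chains lower ranged from 3 to 4, chains higher stayed at 0, partner genes lower ranged from 3 to 6 and higher stayed at 2, genes lower from 105 to 150 and higher from 114 to 172, the chains' median log2 fold change from -0.28 to -0.22 and the log2 ratio of their sum from -0.47 to -0.43. The genotype differences in share ranged from -4.01 to -2.85 points for Col1a2, 0.323 to 1.14 for Col1a1, 1.19 to 1.39 for Col3a1 and 0.994 to 1.28 for Col11a1. Taken of the sum without Col1a1, where a smaller denominator enlarges every share, they were -4.57 for Col1a2, 2.17 for Col3a1 and 1.83 for Col11a1. The difference in the Col5a1 share ranged from -0.00059 points (without Bbs8-/- replicate 1) to 0.0595 and that of Col5a3 from -0.0035 (without Bbs8+/+ replicate 2) to 0.0145, with -0.0009 without Bbs8-/- replicate 3; these shares overlapped, and the cause was not tested. Same-numbered libraries of both genotypes did not deviate together (correlations -0.056 to 0.019 over 6628 genes), so the numbers were not taken as pairs; with the replicate block, 4 chains were lower and 0 higher, their median was -0.25, 5 partner genes were lower and 2 higher, and 129 genes were lower and 134 higher. Col2a1 had 4 to 17 counts per library.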
